A study of Mus musculus with 8 samples.

Results

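Transcripts of 7 members of the Slc22a family of organic ion transporters were followed in mouse liver: Slc22a26, Slc22a27, Slc22a28, Slc22a29, Slc22a30, Slc22a5 and Slc22a7. They were taken by gene symbol from a table of 22013 genes, which holds 25 Slc22a genes in all, and they had been picked with the values of the comparison below in view. Their levels and changes are therefore a description and are given without a p-value. Of the 8 liver libraries, 4 were labelled resmetirom and 4 control. Resmetirom activates thyroid hormone receptor beta, the main form of this receptor in hepatocytes. In the design described for the series, mice were fed fructose, palmitate and cholesterol for 12 weeks to induce steatohepatitis, and intraperitoneal injections of resmetirom, 5 mg/kg/day, were started after 4 weeks and went on for 8 weeks. The vehicle was 0.5% carboxymethyl cellulose sodium with 0.4% Tween-80. Neither diet nor vehicle is stated for the control libraries, so differences in diet, vehicle and drug cannot be told apart, and the strain, sex and age of the mice were not stated. Whether the 4 libraries of a group stem from 4 animals is not stated either, and spreads and p-values describe libraries, whose variation may be technical.

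Slc22a proteins are plasma membrane carriers with a shared fold that move small organic cations, zwitterions and anions into or out of cells, in liver mainly across the hepatocyte surface that faces the blood. Slc22a5, also called OCTN2, is the high-affinity sodium-dependent carnitine transporter, and carnitine is needed to bring long-chain fatty acids into mitochondria. Slc22a7, also called OAT2, carries organic anions and nucleotides such as cyclic GMP. Slc22a26 to Slc22a30 belong to a rodent expansion of the organic anion transporter branch, and several of these genes are known to differ between male and female mice.

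The 5 expanded genes lay side by side on the minus strand of chromosome 19, within 624071 bases of the GRCm38 assembly (7781041 to 8405111). From the lower-numbered end the order was Slc22a26 (7781041 to 7802667), Slc22a27 (7864388 to 7966027), Slc22a28 (8062209 to 8131982), Slc22a29 (8160165 to 8218900) and Slc22a30 (8335371 to 8405111). Slc22a5 lay on chromosome 11 (53864542 to 53891660) and Slc22a7 on chromosome 17 (46432183 to 46438457), both also on the minus strand. Of the 5 genes on chromosome 19, 4 formed closely related copies. The coding sequences of Slc22a28 and Slc22a30 were identical at 98.8% of 1656 aligned bases, and those of Slc22a27 and Slc22a29 at 97.3% of 1653. Between these pairs the identity was 91.7% to 92.4%, and Slc22a26 stood apart from all 4 at 74.3% to 74.7%. Slc22a5 and Slc22a7 matched each other at 63.5% of aligned bases and the chromosome 19 genes at 58.4% to 63.1%.

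The regions around the annotated transcript starts showed the same kinship for Slc22a28 and Slc22a30. These promoter windows are printed because the pair, nearly identical in sequence, differed in its values below, while Slc22a29, which shares part of that sequence, differed from both. Each runs 5′ to 3′ from 250 bases before the start to 50 bases after it, on the minus strand, from RefSeq on GRCm38.p6. Capitals mark bases that have no identical partner in the aligned Slc22a30 window, or, for Slc22a30 itself, in the Slc22a28 window.
Slc22a28, chr19:8131933-8132232: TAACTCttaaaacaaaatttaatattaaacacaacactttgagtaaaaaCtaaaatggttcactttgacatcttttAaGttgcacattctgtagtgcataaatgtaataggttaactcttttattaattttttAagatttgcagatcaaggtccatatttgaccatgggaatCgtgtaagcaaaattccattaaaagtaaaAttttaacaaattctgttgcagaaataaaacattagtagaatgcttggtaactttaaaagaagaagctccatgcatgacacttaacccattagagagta
Slc22a30, chr19:8405056-8405355: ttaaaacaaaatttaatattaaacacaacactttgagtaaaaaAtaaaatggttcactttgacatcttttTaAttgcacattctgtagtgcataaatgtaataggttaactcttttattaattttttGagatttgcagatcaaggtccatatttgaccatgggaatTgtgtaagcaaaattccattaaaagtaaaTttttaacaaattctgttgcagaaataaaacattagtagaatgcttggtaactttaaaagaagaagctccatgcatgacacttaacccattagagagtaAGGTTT
Slc22a29, chr19:8218851-8219150: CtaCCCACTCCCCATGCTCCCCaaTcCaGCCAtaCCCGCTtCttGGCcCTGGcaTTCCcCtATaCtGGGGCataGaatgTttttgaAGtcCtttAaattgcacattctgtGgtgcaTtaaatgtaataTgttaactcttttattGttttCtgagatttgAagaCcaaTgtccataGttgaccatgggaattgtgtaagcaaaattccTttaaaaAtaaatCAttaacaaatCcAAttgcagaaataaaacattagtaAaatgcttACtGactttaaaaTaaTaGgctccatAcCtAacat
The Slc22a28 and Slc22a30 windows aligned over 294 bases with 6 mismatches, an identity of 98.0%. The Slc22a29 window aligned with that of Slc22a30 over 271 bases with 56 mismatches, an identity of 79.3%. Among the Slc22a26 and Slc22a27 windows and those of the other chromosome 19 members, identity was 55.3% to 63.1%.

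Motifs were searched on both strands in the windows of 6 members. The STAT5-type motif TTCNNNGAA was present once, as TTCAGGGAA in the Slc22a26 window, from base -141 to base -133 counted from the transcript start, and 8.3% of 32851 mouse promoter windows of this length held it. The nuclear receptor motif AGGTCA was present once, in the Slc22a27 window on the opposite strand, against 16.3% of all windows. A direct repeat of AGGTCA with any 4 bases between the copies was in none of the 6 and in 0.0152% of all windows. CCAAT was found 3 times in the Slc22a29 window and once in the Slc22a26 window, against 37.4% of all windows with at least 1, and TATAAA in none of the 6, against 13.6%. These matches describe letters and do not show binding.

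In the resmetirom libraries, transcripts of Slc22a27, Slc22a29 and Slc22a26 were higher than in the control libraries by 15.5-fold, 18.2-fold and 8.37-fold, and those of Slc22a28 were 11.7 times as high in the control libraries. Slc22a30 and Slc22a5 had like levels in both groups on this scale, and Slc22a7 was low in both. The scale was CPM, read counts divided by a library total that TMM factors correct so that the bulk of genes is level between libraries. By edgeR's quasi-likelihood test with a Benjamini-Hochberg adjusted p under 0.05, 4 of the 7 genes were called, 3 higher and 1 lower, beside 4.59% of the 12207 genes tested (2.6% higher and 1.99% lower). The same 4 genes had no overlap between the groups, beside 11.8% of genes tested. Both counts follow from the choice of the genes and are not evidence about the family. In such bulk tissue, a change in the number of expressing cells and a change in RNA per cell cannot be told apart.

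Slc22a27, reported in mice to carry carnitine, had the highest level of the 3 genes that rose. It stood at 78.5, 37.7, 54.7 and 45.1 CPM in resmetirom libraries 1 to 4, against 2.89, 3.63, 4.13 and 3.31 CPM in control libraries 1 to 4. The lowest resmetirom library was far above the highest control library, and the control libraries were close together. The means were 54.0 ± 17.7 CPM with resmetirom and 3.49 ± 0.526 CPM in control (SD, n = 4 each), and the log2 fold change was 3.95 (SE 0.24).

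Slc22a29, the near copy of Slc22a27, had a log2 fold change of 4.18 (SE 0.30), within the error of that of Slc22a27. It had 16.0, 8.96, 13.8 and 10.6 CPM in resmetirom libraries 1 to 4, against 0.978, 0.532, 0.409 and 0.791 CPM in control libraries 1 to 4. The groups did not overlap, and the control values rested on few reads, with 57 counts over 4 libraries against 785 counts over the resmetirom libraries.

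Slc22a26 had 20.5, 10.2, 15.7 and 10.7 CPM in resmetirom libraries 1 to 4, against 1.26, 3.48, 1.09 and 0.989 CPM in control libraries 1 to 4. Control library 2 stood apart from the other 3 and was still below every resmetirom library. The log2 fold change was 3.07 (SE 0.42), and 3.67 without control library 2.

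Resmetirom library 1 was the highest of its group for all 3 of these genes and library 2 the lowest. In CPM, library 1 was instead the lowest of its group for Slc22a5, Slc22a7 and Slc22a30, whereas in TPM it was the highest for Slc22a30, at 27.6 TPM, and not the lowest for Slc22a5. Library 1 also differed from the other resmetirom libraries in its TMM factor, 1.06 against 0.804 to 0.879, and in the share of counts in numbered major urinary protein (Mup) genes, 7.54% against 17.8% to 25.1%. In both it lay near the control libraries, which had factors of 1.08 to 1.16 and Mup shares of 4.32% to 7.05%. The part of these measures in the member values was not tested. Without it the log2 fold changes were 3.71 for Slc22a27, 4.02 for Slc22a29, 2.84 for Slc22a26 and -3.26 for Slc22a28.

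**Figure D1:**
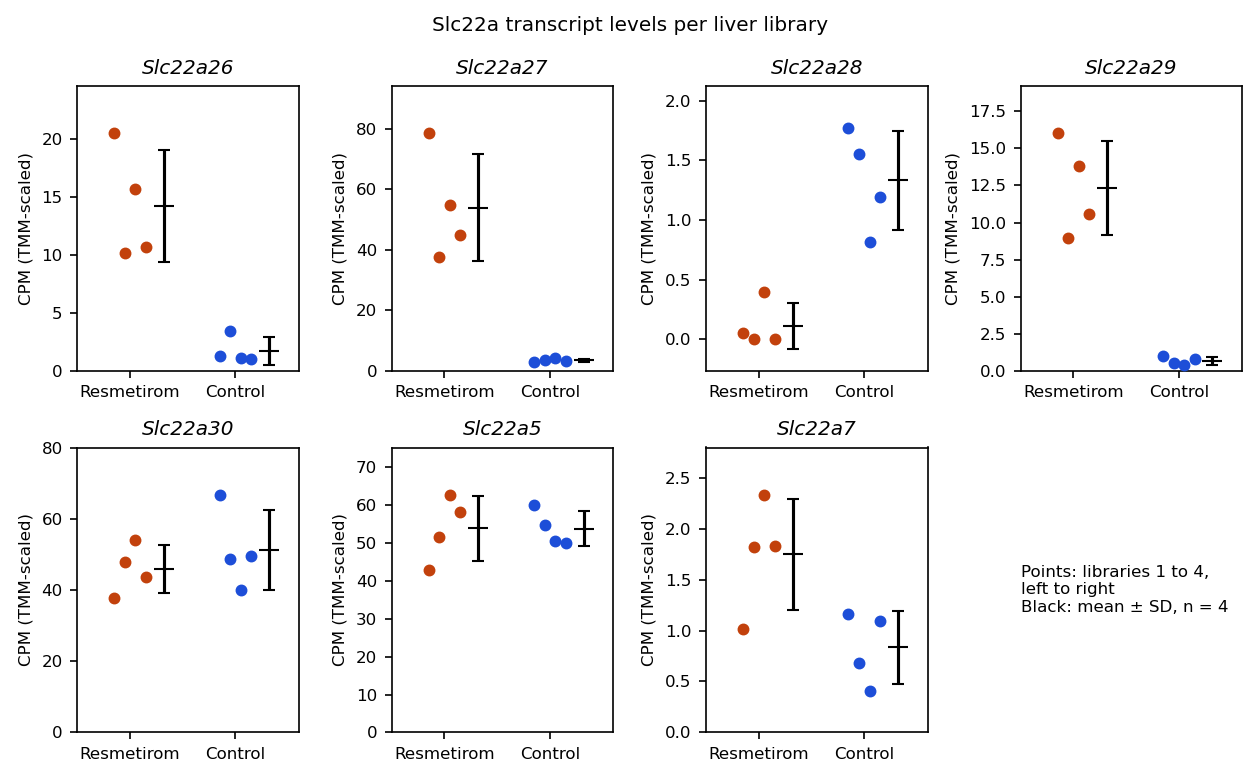
Levels of the 7 genes in CPM scaled by TMM factors, 1 point per library, resmetirom left of control, with mean ± SD (n = 4) in black. Slc22a26, Slc22a27 and Slc22a29 lie higher and Slc22a28 lower in every resmetirom library than in any control library, while the groups overlap for the other 3.

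Slc22a28 lay between the 2 highest risers, Slc22a27 and Slc22a29, and was the member that fell. It had 1, 0, 6 and 0 counts in resmetirom libraries 1 to 4, against 38, 32, 18 and 24 counts in control libraries 1 to 4. In CPM these were 0.0564, 0, 0.4 and 0 with resmetirom, against 1.77, 1.55, 0.818 and 1.19 in control. A count of 0 allows up to 3 counts, or 0.195 and 0.203 CPM in resmetirom libraries 2 and 4, counting error only. The log2 fold change was -3.49 (SE 0.77), and -5.61 without resmetirom library 3, which held 6 of the 7 counts. The call was not reached without control library 1, 2 or 4 or resmetirom library 1, 2 or 4. Only its control libraries all reached the level that the filter on low counts asks of 4 libraries, 0.549 CPM, and for Slc22a29 and Slc22a7 only the resmetirom libraries did. All 7 members passed that filter, these 3 through the group in which they were higher.

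Slc22a30, the near copy of Slc22a28, was among the more abundant members in both groups. It had 37.8, 47.9, 54.1 and 43.8 CPM in resmetirom libraries 1 to 4, against 66.7, 48.6, 40.0 and 49.6 CPM in control libraries 1 to 4. The groups overlapped, with control library 1 the highest of all 8. The log2 fold change was -0.16 (SE 0.16).

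Reads from such copies can be assigned to either gene, and how shared reads were handled was not stated in the labels. Of all 50-base windows in the annotated transcripts of Slc22a28, 53.3% were also in those of Slc22a30, and 28.5% of its 150-base windows were. For Slc22a27 and Slc22a29 the overlap was 25.3% and 0.558% of the windows of Slc22a27. Slc22a26 shared no 50-base window with another member, and Slc22a7 none with any gene. The values of Slc22a28 and of Slc22a29 are therefore uncertain to the extent that reads of the more abundant copy were counted for them. Slc22a28 had 1.49, 0, 7.38 and 0 counts per 1000 counts of Slc22a30 in resmetirom libraries 1 to 4, against 26.5, 31.9, 20.4 and 23.9 in control libraries 1 to 4. The resmetirom ratios rested on 7 counts of Slc22a28, and the part of shared reads in these values was not tested. Slc22a29 had 204, 238, 252 and 235 counts per 1000 of Slc22a27 in the resmetirom libraries, a narrow range inside the wider 98.9 to 339 of the control libraries.

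The make-up of transcripts from the locus differed between the groups. In TPM, transcript levels corrected for gene length and scaled to a fixed total, Slc22a30 supplied 36.0% ± 8.82 of the summed TPM of the 5 genes in the resmetirom libraries and 86.7% ± 3.09 in the control libraries (SD, n = 4 each). Slc22a27 supplied 44.5% ± 6.84 with resmetirom and 6.94% ± 2.51 in control. Slc22a26 made up 8.66% to 12.1% with resmetirom and 1.54% to 5.43% in control, and Slc22a29 9.35% ± 0.755 with resmetirom and 1.13% ± 0.282 in control. Slc22a28 held at most 0.32% in any resmetirom library and 1.96% to 3.05% in the control libraries. The summed level of the 5 genes was 117, 59.3, 69.5 and 63.9 TPM in resmetirom libraries 1 to 4, against 57.6, 46.4, 39.5 and 48.4 TPM in control libraries 1 to 4. On the TPM scale the lowest resmetirom sum lay just above the highest control sum. In CPM the sums lay further apart, at 105 to 153 in the resmetirom libraries and 46.5 to 73.6 in the control libraries.

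**Figure D2:**
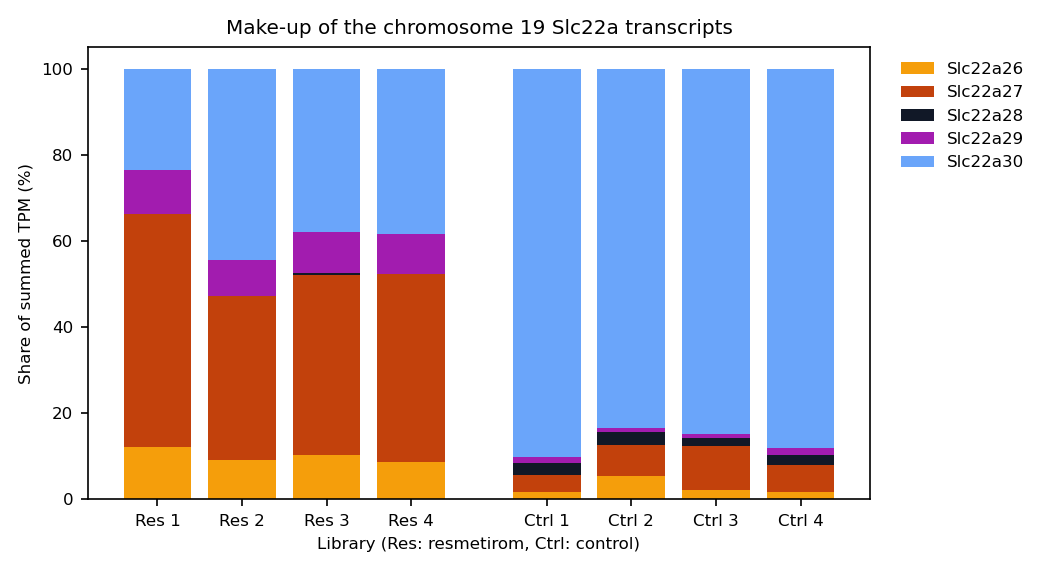
Share of the summed TPM of Slc22a26 to Slc22a30 held by each gene, in percent, 1 bar per library, with resmetirom (Res) left of control (Ctrl). Slc22a30 holds 83.5% to 90.3% of every control bar and 23.6% to 44.4% of every resmetirom bar, and Slc22a27 holds 38.1% to 54.1% with resmetirom.

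Ordered by TPM level, Slc22a27 came first in the resmetirom libraries at 35.7 ± 18.5 TPM (22.6 to 63.1), and its range overlapped that of the second, Slc22a30, at 26.2 ± 1.26 TPM. Slc22a5 followed at 23.0 ± 1.35 TPM, then Slc22a26 at 8.04 ± 4.13 and Slc22a29 at 7.35 ± 3.05 TPM, whose ranges overlapped. Slc22a7 had 1.21 ± 0.218 TPM and Slc22a28 0.0695 ± 0.105 TPM, each apart from its neighbours in the order. In the control libraries Slc22a30 at 41.7 ± 7.76 TPM and Slc22a5 at 32.7 ± 1.5 TPM came first and overlapped each other, well above the rest. Below them Slc22a27 at 3.19 ± 0.681, Slc22a26 at 1.25 ± 0.848, Slc22a28 at 1.23 ± 0.350, Slc22a7 at 0.895 ± 0.383 and Slc22a29 at 0.554 ± 0.202 TPM each overlapped the next (SD, n = 4 throughout).

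The other genes around the locus were compared because they share the members' place in the genome but were not chosen by value. Of 33 such genes that lay within 500000 bases of either end, 21 were tested, and edgeR called 0 of them in either direction, beside 4.59% of all genes tested. At an unadjusted p under 0.05 edgeR gave 1 higher and 0 lower, and DESeq2 and limma-voom called 0. Their log2 fold changes ran from -0.29 to 0.56, with a median of 0.147, beside -0.0043 over all genes tested. Plaat3, a phospholipase and acyltransferase gene, had the smallest p of these neighbours, at 6.37 ± 1.96 CPM with resmetirom and 4.32 ± 0.586 CPM in control (SD, n = 4 each), with an adjusted p of 0.243 and a log2 fold change of 0.56 ± 0.24 (SE). Slc22a19, the next family member beside Slc22a26, and Slc22a6 on the far side, a kidney organic anion transporter, had 0 counts in all 8 libraries, which allows up to 0.203 CPM in any of them. Slc22a8, between Slc22a30 and Slc22a6, had 1 count in each group.

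**Figure D3:**
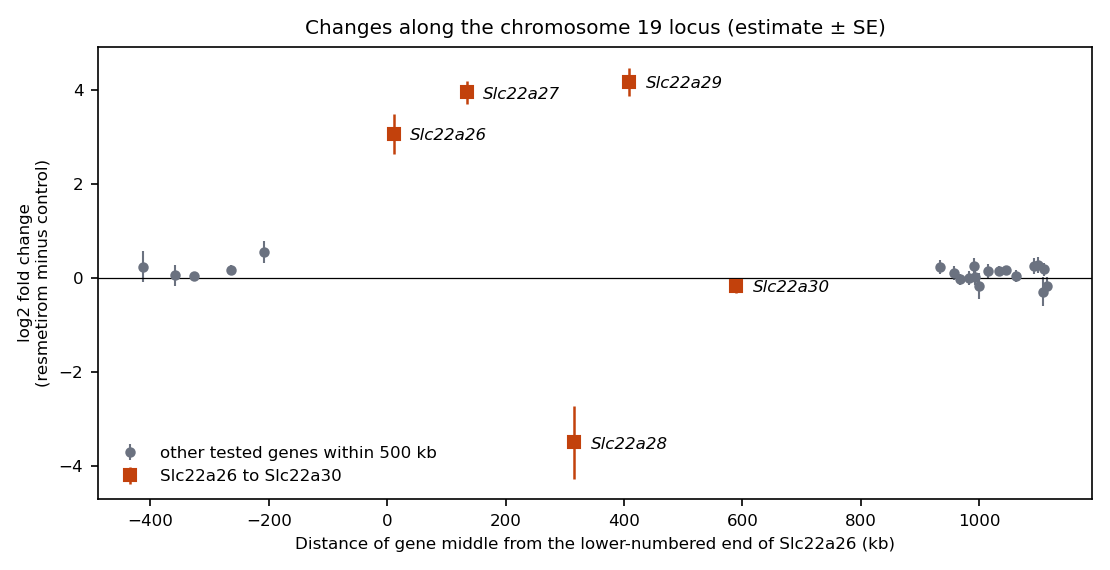
Log2 fold change (resmetirom minus control, edgeR estimate ± SE) against the distance of each gene's middle from the lower-numbered end of Slc22a26, in kb. The 5 Slc22a genes (squares) take values from -3.49 to 4.18, with Slc22a28 below 0 between Slc22a27 and Slc22a29, and the 21 tested neighbours (circles) stay between -0.29 and 0.56.

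Slc22a5, the carnitine transporter, had 43.0, 51.7, 62.7 and 58.1 CPM in resmetirom libraries 1 to 4, against 60.0, 54.8, 50.6 and 49.9 CPM in control libraries 1 to 4. The groups overlapped fully, with means of 53.9 ± 8.56 CPM with resmetirom and 53.8 ± 4.65 CPM in control (SD, n = 4 each) and a log2 fold change of 0.00 (SE 0.12). On the TPM scale, where every library sums to the same total, Slc22a5 was lower in every resmetirom library, at 23.8, 21.1, 23.0 and 24.1 TPM against 34.9, 32.4, 31.5 and 32.1 TPM in control libraries 1 to 4. Slc22a30 likewise had 24.5 to 27.6 TPM with resmetirom and 33.6 to 51.9 TPM in control. On the log2(TPM + 0.1) scale limma called both lower, with changes of -0.50 (SE 0.14) and -0.65 (SE 0.17), while the median over all genes on that scale was -0.50. With library sizes as the only scaling, edgeR gave -0.32 for Slc22a5, not called, and -0.48 for Slc22a30, called, with a median over all genes of -0.31. Whether either gene was called thus depended on the scaling, and the shifts were close to those of the median over all genes. Slc22a26, Slc22a27 and Slc22a29 were called higher, and Slc22a28 lower, on all 3 scales.

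**Figure D4:**
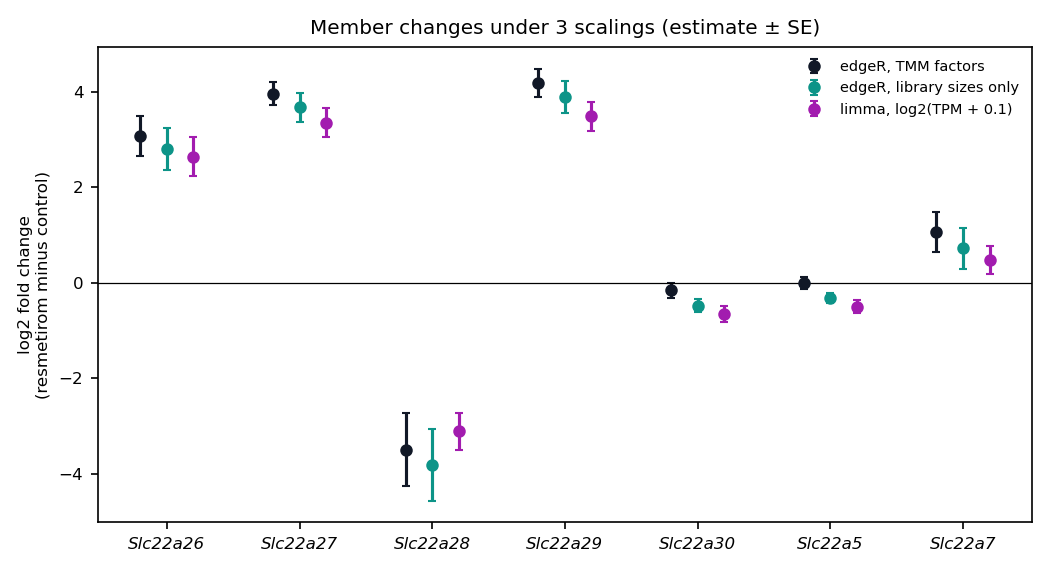
Log2 fold change (resmetirom minus control, estimate ± SE) of each gene with TMM factors, with uncorrected library sizes and on the log2(TPM + 0.1) scale. Slc22a26, Slc22a27 and Slc22a29 stay above 2 and Slc22a28 below -3 on all 3 scales, while Slc22a5 and Slc22a30 lie at 0.00 and -0.16 with TMM factors and at -0.50 and -0.65 on the log2(TPM + 0.1) scale.

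Slc22a7 was rare in these livers. It had 1.01, 1.82, 2.33 and 1.83 CPM in resmetirom libraries 1 to 4, against 1.16, 0.677, 0.409 and 1.09 CPM in control libraries 1 to 4, from 108 and 70 counts per group. Resmetirom library 1 lay within the control range and the other 3 above it. The log2 fold change of 1.06 (SE 0.42) was not called.

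Among genes of carnitine synthesis, transport and transfer, listed beside Slc22a5 with earlier results of these data known, 12 of 14 were tested, of which 1 rose and 1 fell. The share called was 16.7%, beside 4.59% of all genes tested. Their median log2 fold change was 0.258, beside -0.0043 over all genes tested. Cpt1a, the liver enzyme that links long-chain fatty acids to carnitine, was at 646 ± 42.1 CPM with resmetirom and 432 ± 66.5 CPM in control (SD, n = 4 each), with an adjusted p of 0.00916 and a log2 fold change of 0.58 ± 0.11 (SE). Its adjusted p ran from 0.000146 to 0.728 over 19 other settings, and it was not called with library sizes only or on either TPM scale. Cpt1b, the muscle-type enzyme, was at 3.83 ± 0.892 CPM with resmetirom and 7.70 ± 1.55 CPM in control (SD, n = 4 each) and fell by 1.0 ± 0.22 (log2, SE; adjusted p = 0.0205). Its call was lost without control library 3 or 4 or resmetirom library 2 or 4, with adjusted p of 0.0599 to 0.0726. Bbox1, which makes carnitine and was picked out after its values were seen, had 239 ± 11.5 CPM with resmetirom and 190 ± 25.1 CPM in control (SD, n = 4 each) and was not called (log2 fold change 0.33, SE 0.10, adjusted p = 0.0907). Slc25a20, of the same list, was also not called, with a smaller adjusted p of 0.0789 (log2 fold change 0.27, SE 0.08).

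Of the 18 other Slc22a genes, 11 had any counts and 7 were tested. With edgeR, 0 rose and 1 fell, or 14.3% of those tested beside 4.59% of all genes tested. At an unadjusted p under 0.05 edgeR gave 1 higher and 2 lower, and DESeq2 called 1 higher and 1 lower and limma-voom 0 and 1. Slc22a18, an imprinted member on chromosome 7, was at 36.4 ± 4.53 CPM with resmetirom and 51.6 ± 5.49 CPM in control (SD, n = 4 each) and fell by 0.50 ± 0.12 (log2, SE; adjusted p = 0.0281). That call was lost without control library 1, 3 or 4 or resmetirom library 3 or 4, with adjusted p of 0.0531 to 0.0901. Slc22a4 and Slc22a21, which neighbour Slc22a5, had 92 and 16 counts over the resmetirom libraries, and 104 and 16 counts over the control libraries. Of the 50-base windows of Slc22a5 transcripts, 26.3% also occurred in transcripts of other genes, among them these 2.

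Among 25 other carriers of organic ions, listed with earlier results of these data known, 24 were tested, of which 3 rose and 3 fell. The share called was 25.0%, beside 4.59% of all genes tested. Their median log2 fold change was -0.027. Slc10a1, the bile acid uptake carrier NTCP, rose by 0.92 ± 0.16 (log2, SE; adjusted p = 0.00629), Slco1a4, an uptake carrier of organic anions, by 0.78 ± 0.19 (adjusted p = 0.0480), and Slc16a10, an amino acid and thyroid hormone carrier, by 0.64 ± 0.12 (adjusted p = 0.00813). The calls of all 3 were lost on both TPM scales, and with library sizes only so were those of Slco1a4 (adjusted p = 0.0926) and Slc16a10 (adjusted p = 0.0878). Over all 19 other settings the adjusted p ran from 5.47e-06 to 0.154 for Slc10a1, 0.00162 to 0.365 for Slco1a4 and 8.79e-05 to 0.452 for Slc16a10. The call of Slco1a4 was also lost with no filter on low counts (adjusted p = 0.0667) and without control library 3 or 4 or resmetirom library 2, 3 or 4, with adjusted p of 0.0762 to 0.133. The efflux pump gene Abcc3 was at 31.0 ± 9.84 CPM with resmetirom and 215 ± 15.7 CPM in control (SD, n = 4 each) and fell by 2.80 ± 0.22 (log2, SE; adjusted p = 0.000128). The efflux pump genes Abcg2 and Abcc4 fell by 0.89 ± 0.10 (adjusted p = 0.000356) and 0.99 ± 0.22 (adjusted p = 0.0261). The calls of Abcc3 and Abcg2 held in all 19 other settings, with adjusted p up to 0.00268 and 0.0043. That of Abcc4 was lost without control library 2, 3 or 4 or resmetirom library 2, 3 or 4, with adjusted p of 0.0566 to 0.0921.

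**Figure D5:**
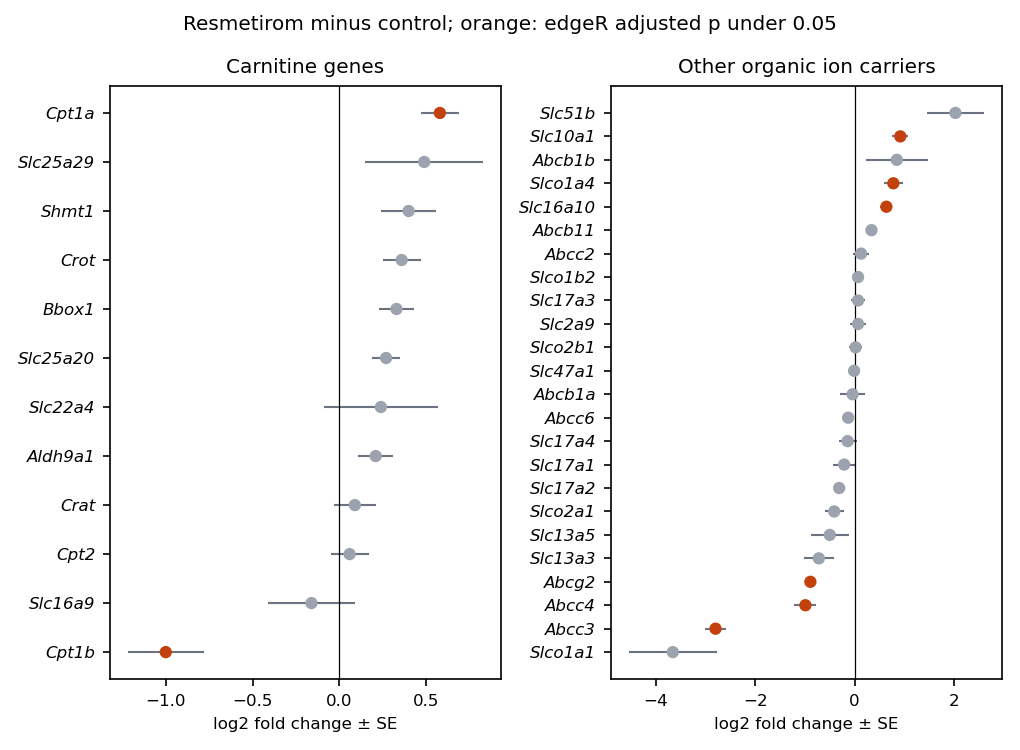
Log2 fold change (resmetirom minus control, edgeR estimate ± SE) of the tested genes of 2 lists, with genes at an adjusted p under 0.05 in orange. Among the carnitine genes Cpt1a and Cpt1b are called, and among the other organic ion carriers 3 genes on each side of 0.

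The genes with the pattern most like each member were sought among 11603 genes with a mean of at least 1 CPM, by the root mean square difference of log2 CPM profiles centred on their means over the 8 libraries. For Slc22a27 the nearest was its near copy Slc22a29 at 0.44, and the part of shared reads in this likeness was not tested. Next was Ugt1a5, a glucuronosyltransferase gene on chromosome 1 that shares exons with other Ugt1a genes, at 0.46. Ugt1a5 was also nearest to Slc22a26 at 0.53, with the glucose transporter gene Slc5a1 next at 0.59. For Slc22a29 the nearest was Enho, which encodes the secreted peptide adropin, at 0.37. Enho had 18.2 ± 7.18 CPM with resmetirom and 1.15 ± 0.404 CPM in control (SD, n = 4 each). For Slc22a7 they were the phosphofructokinase regulator gene Pfkfb2 at 0.27 and the acyltransferase gene Acnat2 at 0.30. The flat profiles of Slc22a5 and Slc22a30 were closest to Pex14 and Map7 at 0.05 and 0.06, and to Ankrd54 and Phc2 at 0.08 and 0.09. The difference between the groups is part of this measure, which describes likeness only.

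Counts per library summed to 16787561 to 19887539, and 13902 to 14442 genes had at least 1 count. Since many Slc22a carriers are prominent in kidney, markers of kidney and of other liver cells were read beside them. Genes of the kidney proximal tubule were low, with Slc5a2, Slc5a12, Kap and Slc22a6 at 0 counts in all libraries and the other 6 of the 10 summing to 0.0649 to 3.16 CPM per resmetirom library and 0.186 to 1.29 CPM per control library. Most of these counts were of Lrp2, with 73 over the resmetirom libraries and 53 over the control libraries. Of 6 markers of other kidney segments, Umod, Slc12a1, Aqp2 and Nphs1 were at 0 and the list summed to at most 0.136 CPM with resmetirom and 0.198 CPM in control. All 8 hepatocyte markers, Alb among them, were present, summing to 97200 to 106000 CPM with resmetirom and 79100 to 90200 CPM in control. These sums did not overlap between the groups and were mostly Alb, with a mean of 73200 CPM with resmetirom and 58300 CPM in control. The list did not move 1 way: Apoa1, Cps1, Tat and Fgb also had a higher mean with resmetirom, while Ttr, Cyp2e1 and Serpina1c had a lower one, for Serpina1c 1990 CPM with resmetirom and 3040 CPM in control. The part of these levels in the member values was not tested. Cholangiocyte markers summed to 40.5 to 71.7 CPM with resmetirom and 28.3 to 53.1 CPM in control, and Kupffer cell and macrophage markers to 199 to 489 CPM with resmetirom and 284 to 424 CPM in control, so that the groups overlapped for both lists. The cholangiocyte sum was mostly Spp1, with a mean of 43.8 CPM with resmetirom and 32.5 CPM in control. Krt19, Krt7, Epcam and Cftr also had a higher mean with resmetirom, while Sox9 had a lower one, 0.905 CPM with resmetirom and 2.37 CPM in control.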

How the data were processed

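Poly(A)-selected liver RNA was sequenced, per the labels' protocols. The authors deposited whole-number counts per gene and TPM values for 8 libraries, per the file headers and the values. Per the submitters' processing notes, the tools were RSEM, StringTie 1.3.1, HISAT2 2.1.0, Bowtie2 2.2.8, fastp 0.18.0, edgeR and DESeq2 and the build mm10, with no role or order given. Strand handling was not stated. Columns were matched to samples by name.

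Counts were tested with edgeR 4.0.16 (R 4.3.3): filterByExpr kept 12207 genes, with TMM factors, robust quasi-likelihood fits, Benjamini-Hochberg adjustment and a threshold of 0.05. SE is the log2 fold change divided by the square root of F. DESeq2 1.42.0, limma 3.58.1 (voom, and log2(TPM + 1) or log2(TPM + 0.1)), other factors and filters, a replicate block and leaving out each library were alternatives. The procedure was also run on counts simulated from the fitted means and dispersions, which cannot decide on the choice of scaling. The members, lists and tests were chosen with earlier results of these data known. Genes named from lists were the called ones (up to 6 by p), or else the one with the smallest p, and the 2 nearest patterns per member, except items that are not reported here. Pairs of libraries of 1 group differed by a chi-square per degree of freedom of at least 13.9. Depth was 16787561 to 19887539 counts per library, and limits from counts cover counting error only. Positions and transcripts are GENCODE M21 on GRCm38, the assembly mm10 names. Members with a RefSeq promoter window numbered 6. Coding sequences were aligned globally, and windows shared between transcripts were counted on both strands.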

Additional observations from a re-analysis of the deposited data

Results flagged for a closer look

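In 4 of the 34 groups of 4 libraries examined (17 genes), 1 library lay farther from the other 3 than Dixon's 95% critical value for the gap over the range allows. Chance flags about 5% of groups of independent, normally distributed values, and whether these CPM values are such was not tested. Control library 2 was high for Slc22a26 at 3.48 CPM, where the gap was 0.892 of the range, and also for the bile acid carrier gene Slc10a1 at 405 CPM. Resmetirom library 3 was high for Slc22a28 at 0.4 CPM, from 6 counts. Control library 1 was high for Slc22a18 at 59.8 CPM, and without it Slc22a18 was not called (adjusted p = 0.0632, against 0.00289 to 0.0901 over all 19 other settings).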

How the results depend on the processing

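All settings drew on the same 8 libraries, and the members had been picked with this comparison in view. Their calls here are therefore a description and not further support. Slc22a26, Slc22a27 and Slc22a29 were called higher in all 19 other settings, with log2 fold changes of 1.98 to 3.67, 3.03 to 4.09 and 2.37 to 4.41. Slc22a28 stayed below 0 in 18 settings (-5.61 to -1.05), was called in 11 of them, and was not tested with the filter of 1 CPM in 4 libraries. Slc22a7 was called in none (0.24 to 1.26). Over all genes, 317 were higher and 243 lower. Uncorrected library sizes gave 151 and 1961, DESeq2 532 and 411, the log2(TPM + 1) scale 121 and 4654, and the log2(TPM + 0.1) scale 112 and 3865. The share of calls that were lower was 43.4% with TMM factors, 92.9% with uncorrected library sizes, and 97.5% and 97.2% on these TPM scales. Leaving out 1 library gave 182 to 313 higher and 149 to 238 lower, with 182 and 149 without control library 4 and 208 and 161 without resmetirom library 4. Of the other Slc22a genes DESeq2 called 1 higher, against 0, and 2 were lower with library sizes only or on either TPM scale, against 1. Leaving out 1 library gave 0 higher and 0 to 1 lower. Carnitine genes had 0 higher with library sizes only or on either TPM scale and 2 with DESeq2, against 1, and 2 lower on the log2(TPM + 1) scale, against 1. Leaving out 1 library gave 1 to 3 higher and 0 to 1 lower, with 3 higher without control library 2 and 2 higher without resmetirom library 2. Other organic ion carriers had 1 higher and 6 lower with uncorrected library sizes, 1 and 12 on the log2(TPM + 1) scale and 1 and 11 on the log2(TPM + 0.1) scale, against 3 and 3, and 2 to 3 and 2 to 4 without 1 library. Neighbours of the locus had 4 lower on the log2(TPM + 1) scale and 2 on the log2(TPM + 0.1) scale, against 0, and 0 higher and 0 lower without any 1 library. The cause of these moves was not tested.

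Both groups carry replicate numbers 1 to 4. Same-numbered libraries deviated from their group means with r = -0.325, 0.184, -0.186 and -0.0612 over genes. Only library 2 of each group correlated best with its same-numbered one, while libraries 1, 3 and 4 of each group correlated best with a differently numbered one. With 4 libraries per group these values cannot decide whether the numbers mark a pairing, and what the numbers stand for was not stated. With the replicate block, 240 genes were higher and 166 lower, the 3 risers were called, Slc22a28 (-3.63) was not, the other Slc22a and carnitine genes had 0 lower each, against 1, and the other organic ion carriers 2 lower, against 3. Among the list genes named, the calls lost were those of Slc22a18 (adjusted p = 0.0537), Cpt1b (0.0747) and Abcc4 (0.0779). Depth limits Slc22a28, with 7 counts over the resmetirom libraries, and the control level of Slc22a29, with 57.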

Other observations

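A few values outside the rule for named genes are given because they stood out once seen. Slco1a1, an uptake carrier of organic anions that male mouse livers are known to express more, had 6.71 ± 5.90 CPM with resmetirom and 84.2 ± 28.6 CPM in control (SD, n = 4 each). Its groups did not overlap, and edgeR did not call its log2 fold change of -3.66 (SE 0.89, adjusted p = 0.0840). Slc51b, which encodes a subunit of a bile acid exporter, had 1.23 ± 0.570 CPM with resmetirom and 0.297 ± 0.212 CPM in control (SD, n = 4 each), also without overlap and not called (log2 fold change 2.03, SE 0.58, adjusted p = 0.0738). These values rested on few reads, with 77 counts over the resmetirom libraries and 25 over the control libraries. Slc22a3, the organic cation transporter OCT3, had 4.79 ± 1.21 CPM with resmetirom and 2.76 ± 0.593 CPM in control (SD, n = 4 each), again without overlap and not called (log2 fold change 0.79, SE 0.25, adjusted p = 0.110). Groups without overlap were found for 11.8% of all genes tested. They were found for 9 of the 24 tested organic ion carriers and 2 of the 7 tested other Slc22a genes, these 3 genes included. Slc22a12, the urate transporter of the kidney, had 6 counts over the resmetirom libraries and 0 over the control libraries, and was not tested.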
